A study of Mus musculus with 18 samples.

Results

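The E2F transcription factors and the retinoblastoma family of pocket proteins form the switch through which mammalian cells pass from G1 into DNA synthesis. The genes described here are E2f1, E2f2, E2f3, E2f4, E2f5, E2f6, E2f7 and E2f8 with the pocket protein genes Rb1 and Rbl1 (p107), 10 genes chosen by name among the 21937 rows of a deposited table of normalised read counts. Of these, 9 had a mean of at least 10 normalised reads over the 18 libraries and were tested, among 12393 tested genes. The exception was E2f6. The cells were NIH3T3, an immortalised line of mouse embryonic fibroblasts. They had been held in 100 nM dexamethasone, a synthetic glucocorticoid that aligns circadian clocks in culture, for 2 h, and the return to ordinary medium was called 0 h. RNA was taken at 0, 4, 8, 12, 16, 20, 24, 28 and 32 h, with 2 replicates at each time. All 9 groups, 0 h included, had received dexamethasone and the medium change, and no group without them was analysed here. The labels do not say whether replicates were separate cultures, so p-values measure the spread between these libraries, which may be technical.

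In textbook models E2F1, E2F2 and E2F3 activate genes of DNA replication once cyclin-dependent kinases have released them from RB1. E2F4 and E2F5 act mainly as repressors in resting cells, bound to p107 or p130, and E2F6 represses without a pocket protein, through polycomb complexes. E2F7 and E2F8 bind DNA without a dimerization partner and repress E2F targets late in S phase. Several of these genes, E2f1, E2f7, E2f8 and Rbl1 among them, are themselves known E2F targets, and the clock of cultured fibroblasts and their division cycle are known to be coupled.

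The libraries held 25.4 to 38.9 M gene reads each. The 0 h libraries were part of every comparison with 0 h, so those 8 comparisons are not independent of each other. All 9 fibroblast markers had a mean of at least 10, with a summed level of 853910 to 1230080 normalised reads, but they moved with time. At 12 h and at 16 h, when members were highest, 8 of the 9 were lower than at 0 h, with medians of -0.29 and -0.30 on the log2 scale. With libraries scaled to equal totals 1 and 2 of the 9 were lower at these times, with medians of -0.11 and -0.11. Epithelial markers summed to 116 to 1122, most of it Krt8, which went from a mean of 935 ± 204 at 0 h to 118 ± 27.3 at 24 h, and Epcam and Cdh1 were under 10. Muscle markers summed to 963 to 6883, most of it Acta1, at 6624 ± 289.9 at 4 h and 960.1 ± 10.5 at 32 h, and Myod1 was under 10. Leukocyte markers summed to 178 to 306, with Cd68 at a mean of 224 and Ptprc and Cd3e under 10, and neural markers to 247 to 716, with Tubb3 at a mean of 425 and Gfap and Sox10 under 10. The endothelial markers summed to 37.4 to 101 and the adipocyte markers to 25.2 to 63.7. The part of these markers in the changes of the members was not tested. Scaling each library to the same total in place of the deposited factors moved the median gene relative to 0 h by 0.03 on the log2 scale at 4 h, 0.14 at 8 h and 0.18 to 0.21 from 12 h on. Calls of members that this shift ended or added are named below. For the lists of partners and targets, counts of called genes are given in both scalings where they moved, and single genes with the deposited factors. As these are bulk RNA samples, a change in how many cells were in a phase of the cycle and a change of RNA per cell cannot be told apart.

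Promoter windows, RefSeq sequence of the GRCm38.p6 build from 250 bases before to 50 bases after an annotated start, were found for 7 of the 10 genes, E2f1, E2f2, E2f3, E2f6, E2f7, E2f8 and Rbl1. They are shown because E2F factors are known to bind upstream of their own family. The E2F words searched on both strands were TTTCCCGC, TTTGGCGC, TTTCGCGC and TTTGCCGC, which can overlap one another only in part. At least 1 of them was in a window of 4 of the 7 genes, E2f2, E2f3, E2f7 and Rbl1, against 704 of 27025 genes (2.61%) in all and 9 of 20 E2F target genes of DNA replication. Positions count from the start as +1, and capitals mark the matched words.
Rbl1, chr2:157204535-157204594, minus strand: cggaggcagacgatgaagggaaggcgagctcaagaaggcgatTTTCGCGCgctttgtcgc
E2f7, chr10:110745215-110745274, plus strand: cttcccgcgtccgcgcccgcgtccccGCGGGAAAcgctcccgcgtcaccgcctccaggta
E2f3, chr13:29986064-29986123, minus strand: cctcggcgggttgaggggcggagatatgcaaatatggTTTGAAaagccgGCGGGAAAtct
E2f2, chr4:136172303-136172323, plus strand: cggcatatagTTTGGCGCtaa
E2f8, chr7:48881597-48881656, minus strand: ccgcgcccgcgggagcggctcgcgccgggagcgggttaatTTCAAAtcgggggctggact
The Rbl1 word TTTCGCGC began at position -18. In E2f7 the capitals are TTTCCCGC read on the other strand, at position -198, and the E2f3 word is the same one on the other strand at position -11. The E2f3 stretch also holds TTTGAA at position -23, the element called CHR in cell cycle promoters. The E2f2 word lay downstream of the RefSeq start, at position 40, but before the start of the gene in GENCODE M21, chr4:136172394. That window overlapped no annotated exon. The E2f8 window held none of the 4 E2F words, and its capitals are CHR on the other strand at position -20. CHR was also in the window of a second E2f2 start, not printed here, at position -31. CHR letters were in 17.9% of all 32851 windows, CCAAT in 37.4%, the E-box CACGTG in 7.15% and AGGTCA, the core word of ROR and REV-ERB receptor sites, in 16.3%. The E-box was in the window of a second E2f3 start at position -24, and AGGTCA in no member window. CCAAT was in windows of E2f2, E2f3, E2f7 and E2f8. None of the searched words was in the windows of E2f1 or E2f6. The E2f1 window lies wholly within annotated exons, 300 of its 300 bases, and within the gene's annotated span, so it shows no sequence upstream of that gene's outer start.

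Over the 32 h, 7 of the 9 tested genes changed with time, E2f1, E2f2, E2f3, E2f4, E2f7, E2f8 and Rbl1, by limma's F test over the 9 times at an adjusted p under 0.05. That test called 52.0% of all tested genes, a background that was itself large. The members were chosen with earlier results of these data known, so no excess is read from their share. E2f1, E2f2, E2f7, E2f8 and Rbl1 had their highest means at 12 or 16 h, E2f3 and E2f4 at 4 h. At 4 h, E2f4 and E2f7 were above 0 h and no member was below it, against 11.0% of tested genes higher and 10.5% lower. At 8 h, E2f2, E2f7 and Rbl1 were higher and none was lower (17.3% and 17.1% of tested genes). At 12 h, 6 members were higher, E2f1, E2f2, E2f5, E2f7, E2f8 and Rbl1, and none was lower (18.1% and 18.2%). At 16 h the same genes apart from E2f5 were higher, 5 in all, and none was lower (18.7% and 17.8%). These 5 were also higher at 20 h, when E2f3 was lower (19.6% and 19.0%). E2f1, E2f2, E2f7 and Rbl1 were still higher at 24 h, with none lower (18.6% and 18.6%), and at 28 h, with E2f3 lower (19.8% and 20.0%). At 32 h, E2f2, E2f7 and Rbl1 were higher and E2f3 was lower (20.5% and 20.4%). With libraries scaled to equal totals 7 members were higher at 8 h and 12 h, 6 at each later time, and none was lower at any time. In that scaling 41.6% of tested genes were called in either direction at 8 h, 48.0% at 12 h and 55.7% at 28 h, and 81.3% of all genes called at 28 h were then higher, against 49.8% with the deposited factors. With the replicate number as a block, 5 members were called at 4 h and 8 members at 8 h in either direction, beside 37.6% and 48.2% of all tested genes.

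**Figure D1:**
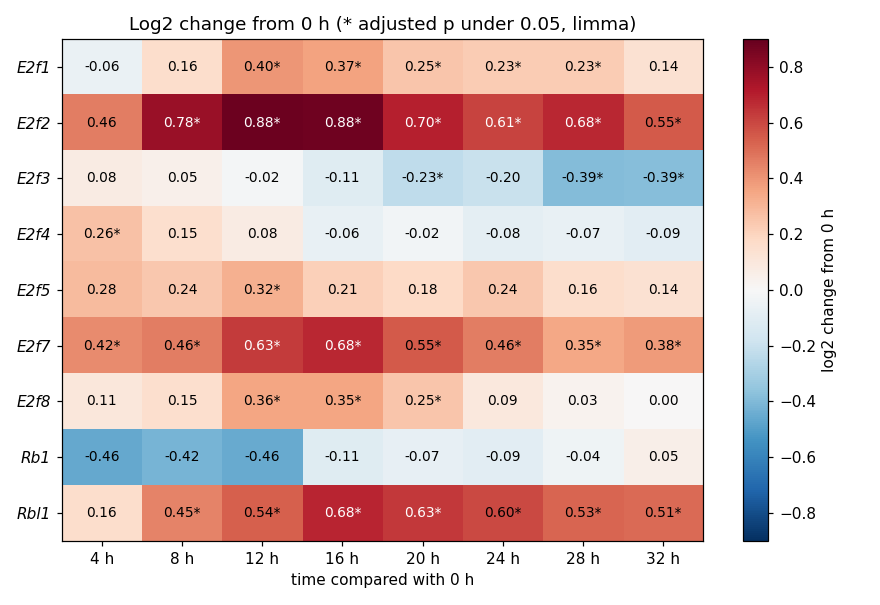
Grid of the log2 change from 0 h of the 9 tested members (lines of cells) at each later time (hours after the medium change, left to right), from limma on log2(normalised reads + 1). Red cells are higher and blue cells lower, and an asterisk marks an adjusted p under 0.05. E2f7 and Rbl1 reached 0.68 ± 0.09 and 0.68 ± 0.07 at 16 h, and E2f3 reached -0.39 ± 0.08 at 28 h.

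E2f1, the founding activator of the family, lay at chr2:154559407-154569892 (GRCm38, minus strand). In time order from 0 h to 32 h, its normalised read counts in replicates 1 and 2 were 1366 and 1302, 1207 and 1357, 1516 and 1466, 1775 and 1737, 1724 and 1712, 1563 and 1612, 1604 and 1520.3, 1580.1 and 1547, and 1477 and 1463, and the values of the other members follow in this order. Both libraries of 12 h and both of 16 h were above all other E2f1 values, and the 4 h and 0 h libraries overlapped. E2f1 rose from 1334 ± 45.8 (SD, n = 2) at 0 h to 1756 ± 26.4 at 12 h, a log2 change of 0.40 ± 0.06 (SE), with an adjusted p of 0.000204 by limma. It was still higher at 20 h (log2 0.25 ± 0.06, adjusted p = 0.00498), 24 h (0.23 ± 0.06, adjusted p = 0.00965) and 28 h (0.23 ± 0.06, adjusted p = 0.00849). The 8 h and 32 h differences passed in the fit with the replicate block, at adjusted p = 0.0297 and 0.0499, and with equal totals (0.00125 and 0.000236). The call at 24 h was lost without 24 h replicate 1 (adjusted p = 0.0727) or 0 h replicate 2 (0.0743), in a range of 4.93e-05 to 0.0743 over all alternatives. The call at 28 h was lost without 28 h replicate 1 (0.0568) or 0 h replicate 2 (0.0672), in a range of 3.54e-05 to 0.0672.

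E2f2, a second activator, was the lowest tested member by length and had the largest fold. Its values were 135 and 125, 203 and 158, 229 and 217, 296 and 194, 278 and 205, 218 and 205, 209.8 and 188, 212 and 205, and 212 and 172. The replicates stood far apart at 12 and 16 h, and replicate 1 was the higher at all 9 times. The 0 h libraries were nevertheless the lowest pair. E2f2 rose from 129.8 ± 6.81 at 0 h to 223 ± 8.53 at 8 h (log2 0.78 ± 0.19, adjusted p = 0.00619) and 245 ± 71.9 at 12 h (0.88 ± 0.19, adjusted p = 0.00244, by limma). The differences at 16, 20, 24, 28 and 32 h passed as well, the last at log2 0.55 ± 0.19, adjusted p = 0.0312. The difference at 4 h passed once the replicate block was included (adjusted p = 0.00771), as did 16 h against 4 h (0.0117, and 0.0294 with equal totals). Within replicates 1 and 2 the log2 changes from 0 h were 0.69 and 0.71 at 20 h and 0.64 and 0.59 at 24 h. They were 0.65 and 0.71 at 28 h and 0.65 and 0.46 at 32 h. Each call from 20 h on was lost on leaving out some single libraries. That at 20 h was lost without 20 h replicate 1 (0.0572) or 0 h replicate 2 (0.0576), in a range of 0.000117 to 0.0576 over all alternatives. At 24 h it was lost without either 0 h library (0.0531 and 0.0993) or 24 h replicate 1 (0.11), in a range of 0.000499 to 0.11. At 28 h it was lost without 28 h replicate 1 (0.0567) or 0 h replicate 2 (0.0615), in a range of 0.000159 to 0.0615. At 32 h it was lost without either 0 h library (0.0705 and 0.127) or 32 h replicate 1 (0.211), with quantile normalization (0.114) and with no filter on the mean (0.0505), in a range of 0.00112 to 0.211. The E2f2 change over all 9 times (adjusted p = 0.0249) was lost without either 0 h library (0.0926 and 0.15), in a range of 0.000118 to 0.15.

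E2f3, the third activator, went the other way from E2f1 and E2f2. Its values were 2934 and 2670.4, 2995 and 2910.2, 3074 and 2723, 2862 and 2681, 2735 and 2468, 2515 and 2261, 2550.0 and 2319.9, 2215 and 2053, and 2224 and 2064. The 28 h and 32 h pairs were the lowest, with no overlap with the 0 h, 4 h or 8 h pairs, and replicate 1 was the higher at all 9 times. E2f3 was 2802 ± 187 at 0 h and 2953 ± 60.2 at 4 h, where the difference did not pass (log2 0.08 ± 0.08, adjusted p = 0.551). It fell to 2388 ± 179.7 at 20 h (log2 -0.23 ± 0.08, adjusted p = 0.0424), 2134 ± 114 at 28 h (-0.39 ± 0.08, adjusted p = 0.00192) and 2144 ± 113 at 32 h (-0.39 ± 0.08, adjusted p = 0.00215), by limma. Blocking on the replicate number, 24 h also passed against 0 h (log2 -0.20 ± 0.05, adjusted p = 0.00123), as did 16 h against 4 h (adjusted p = 0.00297) and 28 h against 16 h (0.000405). All 3 late calls were lost with libraries scaled to equal totals. There the log2 changes from 0 h were -0.03, -0.18 and -0.17 at 20, 28 and 32 h, at adjusted p = 0.779, 0.103 and 0.113. At 12, 16 and 24 h, where no difference had passed, the sign was negative with the deposited factors and positive with equal totals. Over all alternatives the ranges of adjusted p were 0.000346 to 0.779, 6.33e-07 to 0.103 and 8.11e-07 to 0.113. The 20 h call was also lost without 0 h replicate 1 (0.251) or 20 h replicate 2 (0.284), with no filter on the mean (0.0579), no variance trend (0.0664), quantile normalization (0.233) and edgeR (0.0507).

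E2f4, the main repressor E2F of resting cells, was the most abundant member by length, with 1380.0 normalised reads per kb of annotated exon. Its normalised read counts were 2873 and 2551, 3414 and 3088, 3067 and 2943, 2866 and 2844, 2735 and 2454, 2699.8 and 2622, 2549 and 2556, 2675 and 2487, and 2661 and 2415. The highest pair was at 4 h, and from 16 h on the libraries lay around the 0 h values. E2f4 rose from 2712 ± 228 at 0 h to 3251 ± 231 at 4 h (log2 0.26 ± 0.08, adjusted p = 0.0252, by limma), and no later time passed against 0 h with the deposited factors. Equal totals added calls at 8 h (log2 0.29, adjusted p = 0.00994) and 12 h (0.25, 0.0179) and turned the uncalled differences from 16 h to 32 h from negative to positive. The difference at 8 h passed in the fit with the replicate block (log2 0.15 ± 0.05, adjusted p = 0.0227). From its level at 4 h it fell by 16 h (log2 -0.33 ± 0.08, adjusted p = 0.00458) and 28 h (-0.33 ± 0.08, adjusted p = 0.00304), and from 8 h it fell by 32 h (-0.24 ± 0.08, adjusted p = 0.0271). The rise at 4 h was lost without 4 h replicate 1 (adjusted p = 0.197) or 0 h replicate 2 (0.261), in a range of 0.000573 to 0.261 over all alternatives. With libraries scaled to equal totals the falls from 4 h were lost (0.103 at 16 h and 0.131 at 28 h), as were the fall from 8 h to 32 h (0.121) and the change over all times (0.0619). The fall from 4 h to 16 h was lost without 4 h replicate 1 (0.0546) or 16 h replicate 2 (0.0679), that from 8 h to 32 h without either 8 h library (0.152 and 0.0548) or 32 h replicate 2 (0.236), and the change over all times without 4 h replicate 1 (0.0515). The ranges over all alternatives were 3.45e-05 to 0.103 for 16 h against 4 h, 2.03e-05 to 0.131 for 28 h against 4 h, 0.00078 to 0.236 for 32 h against 8 h and 2.88e-05 to 0.0619 for all times.

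E2f5, the other repressor that works with pocket proteins, had values of 387 and 379, 441 and 493, 459 and 448, 452 and 506, 431 and 458, 467 and 403, 474 and 432, 448 and 409, and 448 and 395. Both 0 h libraries were below all the other E2f5 values, of which the 12 h pair had the highest mean. Its mean was 383 ± 5.37 at 0 h and 479 ± 37.9 at 12 h (log2 0.32 ± 0.10, adjusted p = 0.0232, by limma), and it did not pass the test over all 9 times (adjusted p = 0.236). That test passed with libraries scaled to equal totals (0.0227), in a range of 0.0227 to 0.506 over all alternatives. In that scaling E2f5 was above 0 h at all 8 later times, by log2 0.32 at 4 h (adjusted p = 0.0371) to 0.50 at 12 h (0.00109). In the blocked fit, 4, 8 and 24 h passed against 0 h (adjusted p = 0.0231, 0.0393 and 0.0415). The call at 12 h was lost without either 0 h library (0.0628 and 0.0986) or 12 h replicate 2 (0.16) and with quantile normalization (0.0573), in a range of 0.00109 to 0.16. E2f6, the polycomb-linked repressor, was listed at 0 in 15 of the 18 libraries and had 1 read each in 0 h replicate 2, 16 h replicate 1 and 20 h replicate 2, 3 reads in all. A count of 0 allows up to 3 reads in a library, counting error only, so no change of E2f6 was detectable, and whether the counting of its reads was complete was not tested.

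E2f7, one of the 2 atypical repressors, had risen by 4 h. Its values were 1460.4 and 1186, 1847 and 1691, 1869 and 1748, 2090.0 and 1977, 2119 and 2097, 1968 and 1886, 1846 and 1781, 1770.1 and 1581, and 1773 and 1657. All libraries from 4 h on were above both 0 h libraries, the 16 h pair was the highest of the pairs by its mean, and replicate 1 was the higher at all 9 times. E2f7 rose from 1323 ± 194 at 0 h to 1769 ± 110.1 at 4 h (log2 0.42 ± 0.09, adjusted p = 0.00431) and 2108 ± 15.2 at 16 h (0.68 ± 0.09, adjusted p = 3.93e-05), by limma. It was higher at each later time too, at 1676 ± 134 at 28 h (log2 0.35 ± 0.09, adjusted p = 0.00645) and 1715 ± 81.9 at 32 h (0.38 ± 0.09, adjusted p = 0.00336). The rise from 4 h to 16 h also passed (log2 0.25 ± 0.09, adjusted p = 0.0408), and with the replicate block the fall from 16 h to 28 h did (-0.33 ± 0.06, adjusted p = 0.000869). Leaving out 0 h replicate 2 ended the calls at 4 h (adjusted p = 0.0723), 28 h (0.103) and 32 h (0.056), and leaving out 28 h replicate 1 ended that at 28 h (0.0795). The ranges over all alternatives were 1.55e-05 to 0.0723, 6.05e-05 to 0.103 and 1.94e-05 to 0.056 at these times. The rise from 4 h to 16 h was lost without either 16 h library (0.134 and 0.124) or 4 h replicate 2 (0.217), with no filter on the mean (0.0552) and with no variance trend (0.0629), in a range of 0.00156 to 0.217.

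E2f8, the other atypical repressor, was highest at 12 and 16 h, and whether it returned to its 0 h level depended on the scaling. Its values were 1075 and 1071, 1174 and 1135, 1200.3 and 1180.5, 1398 and 1351, 1401 and 1342, 1322 and 1232, 1146 and 1142, 1119 and 1074, and 1128 and 1025. The 12 h and 16 h pairs were the highest and did not overlap with any other pair, and the 28 h and 32 h libraries lay around those of 0 h. E2f8 rose from 1073 ± 2.68 at 0 h to 1375 ± 33.4 at 12 h (log2 0.36 ± 0.06, adjusted p = 0.000505) and 1371 ± 41.4 at 16 h (0.35 ± 0.06, adjusted p = 0.000487), by limma. It passed at 20 h (log2 0.25 ± 0.06, adjusted p = 0.00555) and no longer at 24 h (0.09 ± 0.06, adjusted p = 0.272). With libraries scaled to equal totals it stayed above 0 h at 24, 28 and 32 h, by log2 0.30, 0.24 and 0.22 at adjusted p = 0.00201, 0.00671 and 0.0138, and 8 h passed too (0.0032). It also rose from 4 h to 16 h (log2 0.25 ± 0.06, adjusted p = 0.00731). From 16 h to 28 h it fell by 0.32 on the log2 scale (SE 0.06, adjusted p = 0.0239), the single member called in that comparison, in which 0.670% of tested genes were higher and 0.718% lower. With the replicate block 8 h passed against 0 h (adjusted p = 0.0293) and 32 h against 8 h did (0.0373). The fall from 16 h to 28 h was lost on leaving out any of its 4 libraries, with adjusted p = 0.201 and 0.129 without replicates 1 and 2 of 16 h and 0.0863 and 0.282 without those of 28 h, in a range of 0.000525 to 0.282 over all alternatives. The call at 20 h was lost without 20 h replicate 1 (0.0621), in a range of 8.2e-05 to 0.0621, and that from 4 h to 16 h without 16 h replicate 1 (0.0644) or 4 h replicate 2 (0.0503), in a range of 0.000297 to 0.0644.

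**Figure D2:**
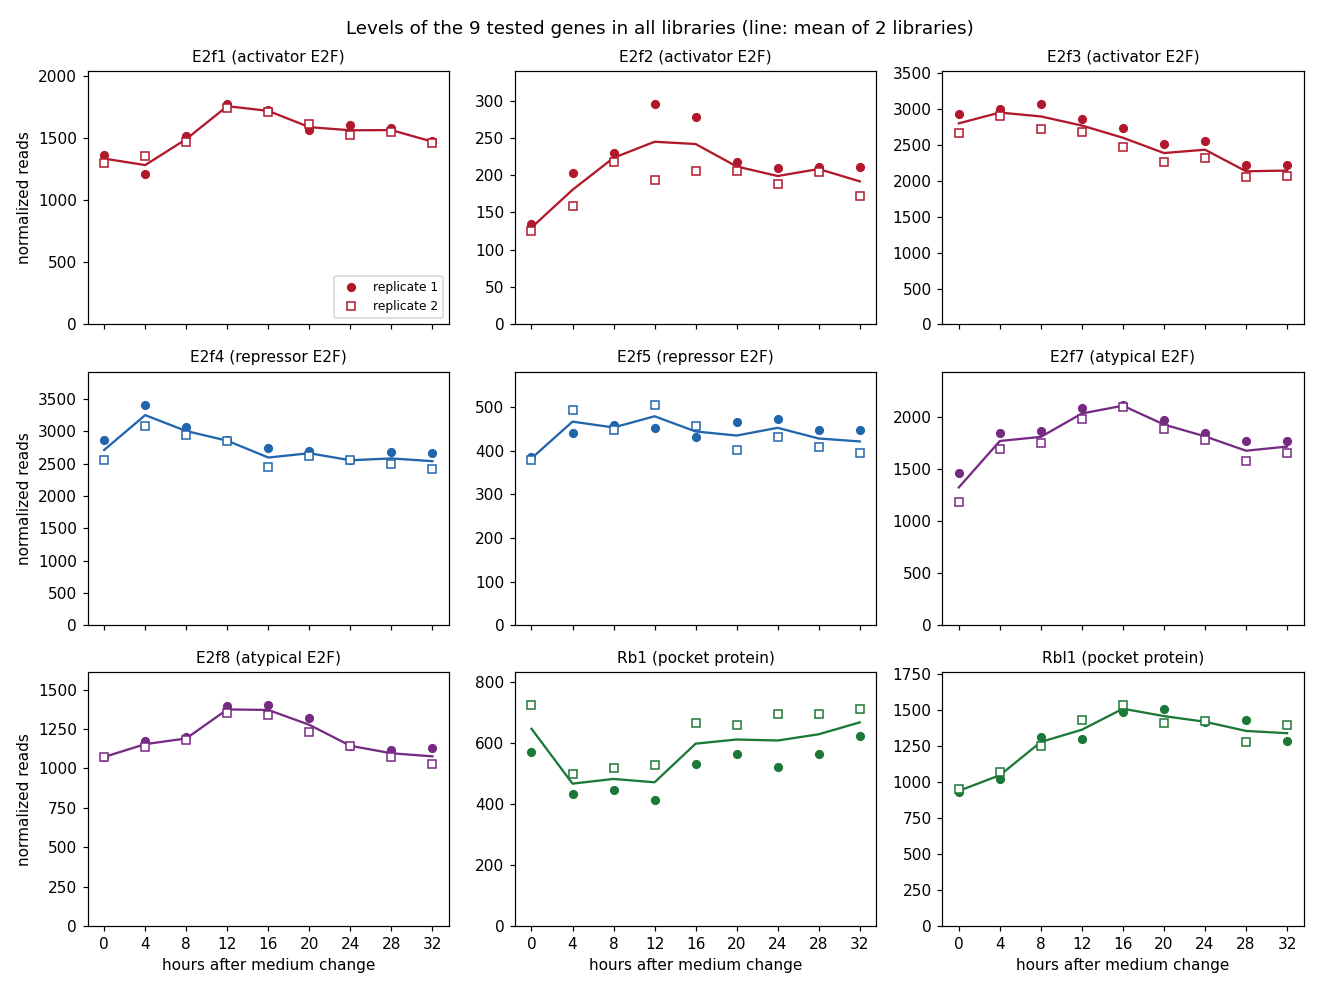
Normalised reads of each tested member in all 18 libraries against hours after the medium change, with a point for each replicate and a line through the means. E2f1, E2f2, E2f7, E2f8 and Rbl1 are highest at 12 or 16 h, E2f3 declines to 28 h, and the 2 replicates of Rb1 are apart at every time.

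Of the pocket protein genes Rbl1 rose. Rb1 did not pass in the main limma fit, and it passed in some of the alternatives. Rbl1, which encodes p107, the pocket protein of cycling cells, had values of 927 and 949, 1021 and 1071, 1309 and 1246, 1295 and 1429, 1484 and 1531, 1505 and 1408, 1415 and 1420.2, 1431 and 1277, and 1283 and 1393. All its libraries from 4 h on were above both 0 h libraries. Rbl1 rose from 938 ± 15.6 at 0 h to 1277 ± 44.3 at 8 h (log2 0.45 ± 0.07, adjusted p = 0.000389) and 1508 ± 33.2 at 16 h (0.68 ± 0.07, adjusted p = 5.56e-06), by limma, and at 32 h it was still at 1338 ± 77.1 (0.51 ± 0.07, adjusted p = 7.11e-05). Its calls from 8 h to 32 h held in every alternative tried. Within replicates the change from 0 h to 16 h was 0.68 in replicate 1 and 0.69 in replicate 2.

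Rb1, which encodes the retinoblastoma protein itself, had values of 569.9 and 724, 434 and 499, 447 and 517, 414 and 528, 529.9 and 666, 565 and 658, 521 and 695, 563 and 694, and 622 and 713. In each replicate the 4, 8 and 12 h values were below the 0 h value, and replicate 2 was above replicate 1 at all 9 times, by 1.22-fold in the mean. The 0 h pair did not overlap with the 4, 8 or 12 h pairs, but the replicates of each time stood far apart, and Rb1 did not pass over all 9 times in the fit without a block (adjusted p = 0.0821, limma), nor in any comparison made. With the replicate number as a block it did, at an adjusted p of 2.29e-06. In that fit Rb1 was lower than at 0 h at 4 h (log2 -0.46 ± 0.07, adjusted p = 6.01e-05), 8 h (-0.42 ± 0.07, adjusted p = 0.000102) and 12 h (-0.46 ± 0.07, adjusted p = 3.28e-05), and it was higher at 16 h than at 4 h (0.35 ± 0.07, adjusted p = 0.000566), at 28 h than at 4 h (0.42 ± 0.07, adjusted p = 5.99e-05) and at 32 h than at 8 h (0.47 ± 0.07, adjusted p = 3.3e-05). Within replicates the change from 0 h to 4 h was -0.39 in replicate 1 and -0.53 in replicate 2, and from 0 h to 12 h -0.46 in replicate 1 and -0.45 in replicate 2. Over all alternatives the adjusted p over all times ran from 2.29e-06 to 0.164, and it passed also with equal totals (0.0216), with DESeq2 (0.0187) and without 24 h replicate 1 (0.0457). With equal totals Rb1 was also called higher at 16 h than at 4 h (0.0276), at 28 h than at 4 h (0.00895) and at 32 h than at 8 h (0.0291).

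**Figure D3:**
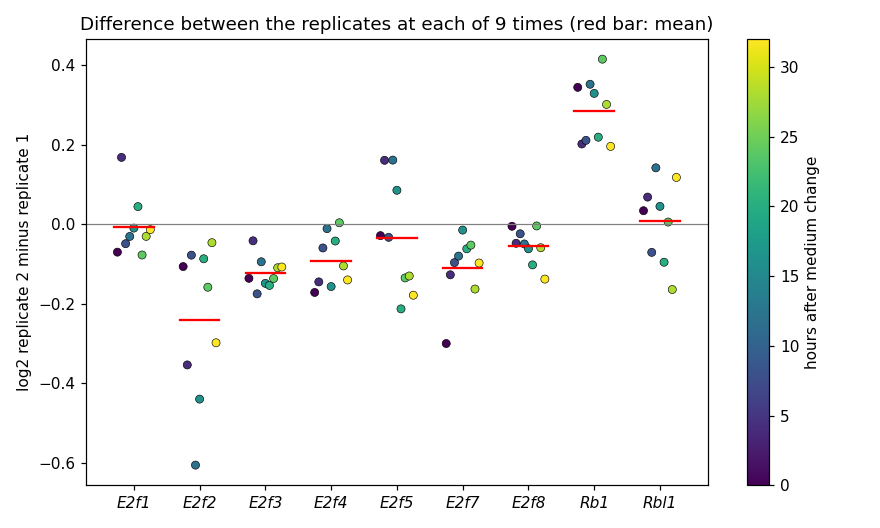
Log2 difference of replicate 2 minus replicate 1 for each tested member, with a point for each of the 9 times coloured by hours after the medium change and a red bar at their mean. Rb1 lies above 0 at all 9 times, and E2f2, E2f3, E2f7 and E2f8 below 0 at all 9.

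Rbl2, the gene of the third pocket protein p130, and the DP subunits Tfdp1 and Tfdp2, with which E2F1 to E2F6 bind DNA, are the closest partners of the members. All 3 passed over the 9 times. Rbl2 rose from 505 ± 113 at 0 h to 761 ± 80.8 at 16 h (log2 0.61 ± 0.15, adjusted p = 0.00543) and 899 ± 86.2 at 32 h (0.85 ± 0.15, adjusted p = 0.000429), by limma. Tfdp2 rose from 699.9 ± 17.9 to 1067 ± 86.8 at 16 h (log2 0.61 ± 0.10, adjusted p = 0.000208), and Tfdp1 from 5861 ± 209 to 6903 ± 204 (0.24 ± 0.05, adjusted p = 0.00219). At 32 h Tfdp1 was at 6035 ± 147 and did not pass against 0 h (0.04 ± 0.05, adjusted p = 0.539). With libraries scaled to equal totals all 3 genes were called higher at 32 h, so whether Tfdp1 returned to its 0 h level depended on the scaling.

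Ratios taken within each library set the members against one another without regard to library scaling. The log2 ratio of E2f1 to E2f4, activator to repressor, was -1.07 and -0.97 in replicates 1 and 2 at 0 h, -1.50 and -1.19 at 4 h, -0.67 and -0.52 at 16 h and -0.85 and -0.72 at 32 h. Both libraries at 16 h were above both at 0 h and both at 4 h. Its mean went from -1.34 ± 0.22 (SD, n = 2) at 4 h to -0.59 ± 0.10 at 16 h. The log2 ratio of E2f8 to E2f4 went from -1.49 ± 0.07 at 4 h to -0.92 ± 0.07 at 16 h, its highest mean, and the 0 h and 32 h means were -1.33 ± 0.12 and -1.24 ± 0.00149. The log2 ratio of Rbl1 to Rb1, p107 to RB1, was 0.70 and 0.39 in the 0 h libraries, 1.64 and 1.43 in those of 12 h and 1.04 and 0.96 in those of 32 h. Both libraries at 12 h lay above both at 0 h. It was highest at 12 h (1.54 ± 0.15), against 0.55 ± 0.22 at 0 h. The log2 ratio of E2f7 to E2f1, repressor to activator, went from -0.02 ± 0.16 at 0 h to 0.47 ± 0.21 at 4 h and stayed between 0.10 and 0.29 afterwards. No test was run on the ratios. They compare changes, not levels, since longer genes gather more reads.

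**Figure D4:**
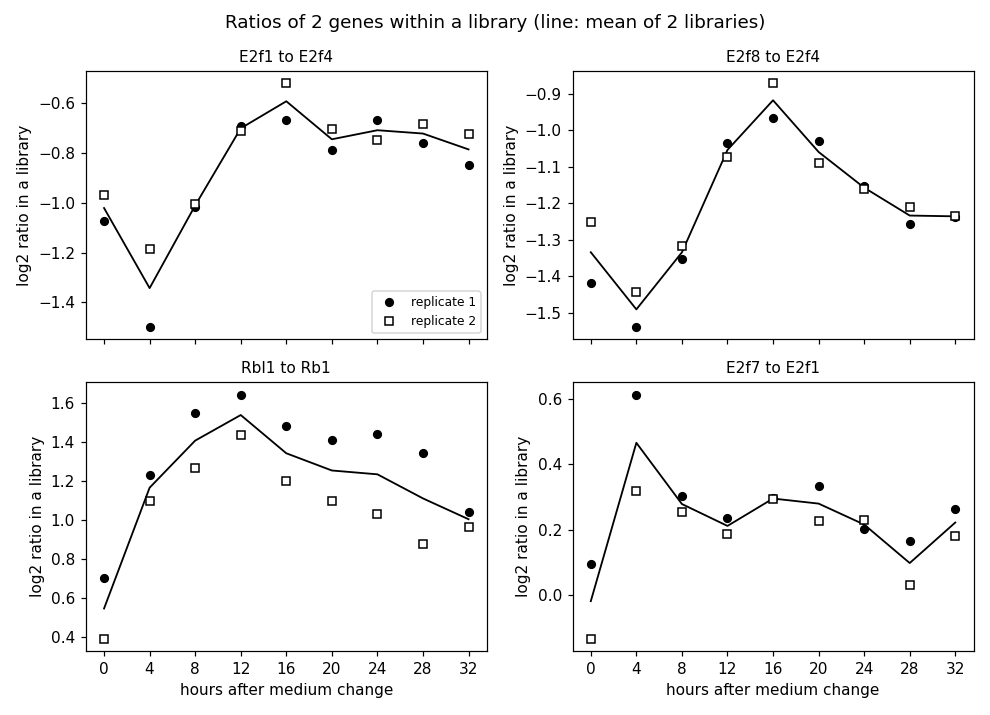
Log2 ratio of normalised reads of 2 members within each library, against hours after the medium change, for E2f1 to E2f4, E2f8 to E2f4, Rbl1 to Rb1 and E2f7 to E2f1, with a point for each replicate and a line through the means. The 2 ratios over E2f4 are lowest at 4 h and highest at 16 h.

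Per kb of annotated exon, mean levels over the 18 libraries were 1380.0 normalised reads for E2f4, 485 for E2f1, 479 for E2f3, 308 for E2f8, 267 for Rbl1, 247 for E2f5, 228 for E2f7, 124 for Rb1 and 42.9 for E2f2. E2f4 stood above the rest in every library, its lowest library (1212) above the highest of E2f3 (573) and E2f1 (563). The ranges of the neighbours E2f1 and E2f3 overlapped, as did those of E2f8, Rbl1, E2f5 and E2f7, and Rb1 met E2f7 at the edge. E2f2 lay lowest, its highest library (62.4) below the lowest of Rb1 (88.9). Lengths came from GENCODE M21 on GRCm38, not from the annotation used in counting, which is not given in the sources used here.

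The question set by the series is circadian rhythm, and a 24 h cosine was tested in place of free time means. E2f8 was the single member that passed, with a fitted peak at 15.3 ± 0.622 h (SE), 1.27-fold from trough to peak and an adjusted p of 0.0323 by limma. 0.371% of all tested genes passed. The fitted peaks of E2f1, Rbl1, E2f7 and E2f2 were at 15.0, 14.9, 14.2 and 13.2 h, with 1.25-, 1.29-, 1.32- and 1.43-fold, and they did not pass (adjusted p = 0.107, 0.269, 0.151 and 0.237). The series covers little more than 1 period, so 1 rise and fall and a repeating rhythm cannot be told apart. The E2f8 call was lost with equal totals (adjusted p = 0.0696), with a period of 22 h (0.309), in either replicate alone (0.908 and 0.946), and without replicate 1 of 0 h (0.0502), 8 h (0.0511), 12 h (0.0914), 16 h (0.131) or 20 h (0.0721) and, of the second replicate, 8 h (0.0587), 12 h (0.0924), 16 h (0.0936) or 28 h (0.061), in a range of 3.54e-05 to 0.946. With a linear term in time E2f1 (0.0089), E2f7 (0.0321) and Rbl1 (0.0149) passed as well, in ranges of 0.00607 to 0.946, 0.0171 to 0.946 and 0.0112 to 0.946. In that fit 2108 of the 12393 tested genes passed, against 46 in the main one. With the replicate block added to that term, a choice made after seeing the data, E2f2 passed too (0.0312), in a range of 0.0312 to 0.946. There 3559 tested genes passed. E2f1 and E2f7 also passed with DESeq2 and with periods of 26 and 28 h, and E2f7 passed without the 0 h and 4 h libraries. In these fits 533, 344, 1432 and 142 tested genes passed, in the same order.

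Times 24 h apart compare like circadian hours. At 28 h against 4 h, E2f1 (log2 0.29 ± 0.06, adjusted p = 0.00188) and Rbl1 (0.37 ± 0.07, adjusted p = 0.00101) were higher, and E2f3 (-0.47 ± 0.08, adjusted p = 0.000517) and E2f4 were lower, by limma, against 20.6% of tested genes higher and 20.7% lower. At 32 h against 8 h, E2f3 (log2 -0.43 ± 0.08, adjusted p = 0.00215) and E2f4 were lower and no member was higher (13.5% and 14.1%). At 16 h against 4 h, 12 h apart, E2f1 (log2 0.42 ± 0.06, adjusted p = 0.000129), Rbl1 (0.53 ± 0.07, adjusted p = 8.37e-05), E2f7 and E2f8 were higher and E2f4 was lower (16.4% and 16.3%).

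Partners and targets of the members, in lists chosen with earlier results of these data known, are given by their counts and medians. The test over the 9 times, which called 52.0% of all tested genes, called all 25 E2F target genes of DNA replication. Relative to 0 h, 1 of the 25 was higher at 4 h, 14 were by 8 h and 25 by 16 h, 18 were at 32 h, and none was lower at any of these times. Of all tested genes 11.0%, 17.3%, 18.7% and 20.5% were higher at these times. With libraries scaled to equal totals 4 of the 25 were higher at 4 h, 23 at 8 h and 25 at 32 h. In that scaling 22.1%, 41.6% and 55.4% of tested genes were called at these times, and 61.4%, 77.7% and 81.0% of those were higher. The median log2 change of the 25 genes was 0.22 at 8 h and 0.46 at 16 h, beside 0.00 for all tested genes at 16 h. With equal totals the 16 h medians were 0.65 and 0.19. Pola1, the catalytic subunit of DNA polymerase alpha, rose from 2258 ± 4.94 to 3379 ± 9.35 at 16 h (log2 0.58 ± 0.07, adjusted p = 1.23e-05). Mcm5 and Mcm7, subunits of the replicative helicase, rose by log2 0.43 ± 0.05 and 0.48 ± 0.06. The 15 late cell cycle genes all passed too. At 4 h 6 were higher and 1 lower (8 and 1 with equal totals), beside 11.0% and 10.5% of all tested genes with the deposited factors. At 20 h all 15 were higher, with a median of 0.77, beside 19.6% of all tested genes. Kif20a, a mitotic kinesin, was 2449.8 ± 3.3 at 0 h and 4358 ± 13.5 at 24 h (log2 0.83 ± 0.06, adjusted p = 1.08e-07). Cenpf, a kinetochore protein, had its highest mean at the same time, 5696 ± 142 against 2661 ± 8.2. Kif11, the spindle kinesin, rose by log2 0.65 ± 0.05 at 16 h. The median of the replication genes was thus about level at 16 and 20 h, and that of the late genes was highest at 20 h. E2f7 and Rbl1 had their highest means at 16 h.

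**Figure D5:**
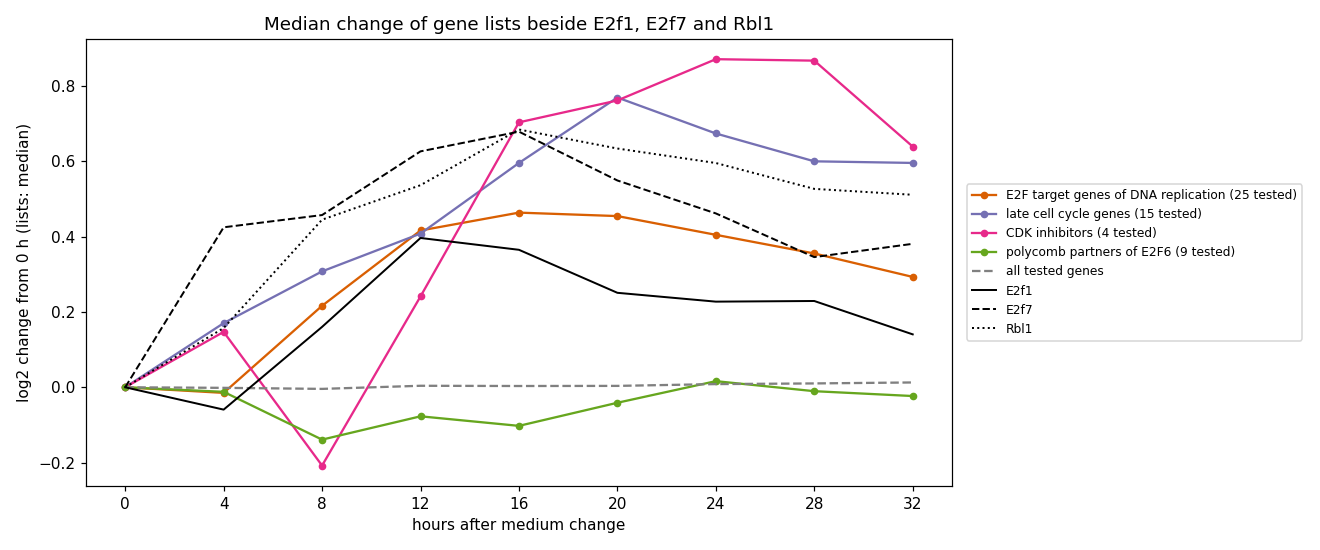
Median log2 change from 0 h of 4 gene lists and of all tested genes, with E2f1, E2f7 and Rbl1 as single genes, against hours after the medium change. The replication genes are about level at 16 h (0.46) and 20 h (0.45). The late cell cycle genes are highest at 20 h. The deposited factors level the median gene between libraries, so the median of all tested genes stays near 0. With libraries scaled to equal totals the medians at 20 h are 0.97 for the late genes and 0.20 for all tested genes.

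Among the genes of DREAM and MuvB subunits and of their MYB and FOX partners, 6 of 8 passed over all times, beside 52.0% of all tested genes. At 16 h 5 were higher and 0 lower (median log2 0.46), beside 18.7% and 17.8% of all tested genes. With libraries scaled to equal totals all 8 were higher at 16 h, when 50.7% of tested genes were called in either direction. Mybl2 (B-MYB), an E2F target, rose from 1632 ± 125 to 2579 ± 187 at 12 h (log2 0.66 ± 0.11, adjusted p = 0.000256) and was at 1643 ± 60.1 at 32 h. Foxm1, which drives mitotic genes, was highest at 20 h, at 5658 ± 70.5 against 3676 ± 209 at 0 h. Rbbp4, a histone-binding MuvB subunit, was higher at 32 h (log2 0.19 ± 0.06, adjusted p = 0.0193). Of 8 cyclin D and E genes and their kinases, which inactivate pocket proteins, 5 passed, a share near the 52.0% of all tested genes. At 16 h 3 were higher and 1 lower (median 0.20), beside 18.7% and 17.8% of all tested genes. With equal totals 6 of the 8 were higher and 0 lower at 16 h. There 50.7% of tested genes were called, and 80.4% of these were higher. Ccne1, cyclin E1, rose from 2247 ± 134 to 3273 ± 116 at 16 h (log2 0.54 ± 0.07, adjusted p = 3.95e-05), Cdk2 rose by 0.31 ± 0.06, and Cdk4 did not pass at 16 h (0.02 ± 0.05, adjusted p = 0.767).

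Of the 7 CDK inhibitor genes, which keep pocket proteins active, 4 were tested and all 4 passed over the 9 times, beside 52.0% of all tested genes. At 16 h 2 were higher and 0 lower, beside 18.7% and 17.8% of all tested genes. Cdkn2c (p18) rose from 801 ± 108 to 1531 ± 102 at 24 h (log2 0.94 ± 0.13, adjusted p = 4.79e-05), and Cdkn1b (p27) from 627 ± 72.2 to 1313 ± 56.6 at 32 h (1.07 ± 0.12, adjusted p = 9.33e-06). Cdkn1a (p21) fell from 5728 ± 388 to 3945 ± 203 at 8 h (-0.54 ± 0.08, adjusted p = 0.000171). Cdkn2a and Cdkn2b, named after their values were seen, were listed at 0 in all 18 libraries. NIH3T3 cells are known to lack the Cdkn2a locus.

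Genes whose log2 values ran most like those of a member over the 18 libraries are named as a description, since the libraries share a time course and are not independent points. E2f1 ran most like Rfc3 (Pearson r = 0.940) and Cdk2 (0.936), a clamp loader subunit and the cyclin E kinase. Rbl1 ran most like Slfn9 (0.967) and Rfc1 (0.964), the second of them the large clamp loader subunit. E2f7 ran most like Exosc7 (0.957) and B3gntl1 (0.951), and E2f8 most like Mboat1 (0.928) and Trim27 (0.906). E2f2 came with Arrb2 (0.930) and D630045J12Rik (0.930), E2f3 with Lrp8 (0.974) and Slc39a6 (0.973), and E2f4 with Snapc4 (0.941) and Nxf1 (0.939).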

How the data were processed

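RNA of NIH3T3 cells was sequenced as single-end reads at 9 times with 2 replicates. The deposited table holds a signal, normalised read counts per gene. TopHat, HTSeq, DESeq and the mm9 build are named in the submitters' processing notes, and versions and the annotation are not given in the sources used here. Dividing each library by its step gave back whole reads to within 0.00611 of a read. In the first 16 columns this was also checked automatically; in the last 2, replicate 2 of 28 h and 32 h, the step is too near 1 for that check.

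Values were taken as log2(normalised reads + 1) for the 12393 of 21937 genes with a mean of at least 10, and fitted with limma 3.58.1 (R 4.3.3) with a variance trend over all 18 libraries, with an F test over the times, 12 pairs of times and a 24 h cosine, at a Benjamini-Hochberg adjusted p of 0.05. Fold changes are on that log2 scale, which understates changes of low genes. Alternatives were pseudocounts of 0.5 and 5, other filters and scalings, fits with no trend or a robust one, count models of the recovered reads (edgeR 4.0.16, DESeq2 1.42.0), the replicate number as a block, other periods, a linear term and leaving out each library. Same-numbered replicates deviated together in 36 of 36 pairs of times (r from 0.23 to 0.502, median 0.345), so the numbers were taken to pair the libraries. That comes from the data, since the labels name no source of the pairing, and blocked values stand beside results whose call they change. The fits without a block were also run on simulated data whose libraries were independent draws. No effect shared by a replicate number was simulated, so calls that hinge on the block were not tested there.

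The members and the gene lists were chosen with earlier results of these data known. From each list of partners up to 3 genes with the smallest F p were named, and for each member past that test the 2 genes most correlated with it among those with a mean of at least 50. Coordinates and sequences are GRCm38, and no coordinate of the files was used. Figures were drawn with matplotlib 3.10.9 in Python 3.11.15.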

Additional observations from a re-analysis of the deposited data

How the results depend on the processing

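Of 65 results on single members (changes over all times, the called pairs of times and the 24 h rhythm), 35 stayed on the same side of the threshold in every alternative run. Over these results no alternative turned a direction. Leaving out 1 library kept 1117 values on their side, ended 52 calls and added 1, and the other alternatives kept 749, ended 20 and added 18. The cause was not tested, apart from fewer libraries in the fits that leave one out, where a lone library is assumed to vary like the rest. The ratio of E2f8 to E2f4 at 32 h moved by more than its replicate spread with a pseudocount of 5, to a log2 of -1.23. Beyond the calls named in the report, the replicate block changed no call of a member.

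With the replicate block, 4662 genes and 5 members were called for 4 h against 0 h, 5976 genes and 8 members for 8 h against 0 h and 5715 genes and 8 members for 16 h against 4 h. It gave 1610 genes and 3 members for 28 h against 16 h, and 5241 genes and 4 members for 32 h against 8 h. Members called for 8 h against 0 h were 7 with equal totals (41.6% of tested genes called) and 5 with quantile normalization (33.3%). At 28 h against 16 h, 109 genes were called with no filter on the mean, 108 with no variance trend and 366 with DESeq2, which called 2 members.

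The count of genes with a 24 h rhythm was 26 with no filter, 19 with equal totals, 533 with DESeq2, 74 with the replicate block, 15, 344 and 1432 with periods of 22, 26 and 28 h, 2108 with a linear term, 3559 with the block and linear term (added after seeing the data), 142 without 0 h and 4 h, and 2 and 1 in replicates 1 and 2 alone. The members among them were 0 with equal totals, 3 with DESeq2, 0, 3 and 3 with periods of 22, 26 and 28 h, 4 with a linear term, 5 with the block and linear term, 2 without 0 h and 4 h, and 0 in either replicate alone.

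Leaving out 1 library gave 971 to 2719 genes and 0 to 3 members for 4 h against 0 h and 2571 to 4331 genes for 8 h against 0 h. Against 0 h it gave 3400 to 4655 genes and 2 to 4 members for 24 h, 3655 to 5000 genes and 2 to 5 members for 28 h, and 3649 to 5123 genes and 2 to 4 members for 32 h. It gave 2641 to 4096 genes and 3 to 5 members for 16 h against 4 h, 11 to 199 genes and 0 to 2 members for 28 h against 16 h, 3409 to 5159 genes for 28 h against 4 h, 1554 to 3508 genes and 1 to 3 members for 32 h against 8 h, and 18 to 48 genes and 0 to 1 members for the rhythm. With 2 libraries a time, the depth of E2f6 (3 reads) and the spread of E2f2 set the limits of what could be detected.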

Other observations

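The 9 tested polycomb partners of E2F6, listed because E2f6 itself was near 0, split in direction, and 4 of them passed over all 9 times, beside 52.0% of all tested genes. At 16 h against 0 h 3 were higher and 3 lower, beside 18.7% and 17.8% of all tested genes. Their median log2 change was -0.10 beside 0.00 for all tested genes. With libraries scaled to equal totals these medians were 0.09 and 0.19. In that scaling 4 of the 9 were higher and 0 lower. There 50.7% of tested genes were called, and 80.4% of these were higher. L3mbtl2, a histone-binding subunit, rose from 1397 ± 131 at 0 h (SD, n = 2) to 2067 ± 109 at 8 h (log2 0.57 ± 0.08, adjusted p = 0.00013, limma). Rybp, a RING1-binding subunit, fell from 3253 ± 447 to 2146 ± 275 (log2 -0.60 ± 0.12, adjusted p = 0.00205). Mga, which pairs with MAX, was higher at 4 h (log2 0.25 ± 0.06, adjusted p = 0.00819).

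Of the 6 genes of Skp2 and APC/C factors, which mark cell cycle proteins for degradation, 3 passed over all times, beside 52.0% of all tested genes. At 16 h 2 were higher and 0 lower, beside 18.7% and 17.8% of all tested genes. With libraries scaled to equal totals all 6 were higher at 16 h, when 50.7% of tested genes were called in either direction. Ccnf, cyclin F, rose from 1526 ± 293 at 0 h to 2268 ± 226 at 4 h (log2 0.58 ± 0.10, adjusted p = 0.00158) and 3178 ± 103 at 16 h (1.07 ± 0.10, adjusted p = 2.46e-06). Fzr1, the CDH1 activator of APC/C, rose to 2293 ± 46.7 at 16 h from 1653 ± 7.47 (log2 0.47 ± 0.07, adjusted p = 9.69e-05), and Cks1b, a cofactor of SKP2, passed at 24 h (0.17 ± 0.05, adjusted p = 0.0228).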
